A study of Mus musculus with 65 samples.

Results

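Progenitors of the embryonic mouse cortex that carry Sox2 were compared according to whether they also carried Hes1. The cells were selected on their own Sox2 and Hes1 values: a cell was kept when its library held 1000000 or more reads in genes and Sox2 stood at 10 CPM (reads of the gene per 1000000 reads in the cell) or more, and was called Hes1+ when Hes1 was at 10 CPM or more and Hes1- when it was lower. This gave 20 of the 65 cells of the series, 12 of them Hes1+ and 8 Hes1-. Of the others, 42 cells had Sox2 below 10 CPM and 3 had fewer than 1000000 reads, among them 2 with Sox2.

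All cells came from C57BL/6J embryos at E13.5 and carried no engineered allele or treatment. Cortical hemispheres without the ganglionic eminences were pooled over embryos, and live cells, negative for propidium iodide, were sorted 1 by 1 and amplified with a SMARTer kit that copies whole transcripts. The submitters labelled each cell a neural progenitor cell, and the series design names transcriptional heterogeneity among such cells as its subject. Because no animal is named, each group counts as 1 sample, the cells are not replicates, and no test was made: values below are levels per cell, differences with the standard deviation (SD) across cells, and counts of genes past fixed bounds.

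Sox2 is a transcription factor of neural stem and progenitor cells. When a Notch receptor is bound by a ligand such as Dll1 on a neighbouring cell, its intracellular part joins the DNA-binding protein RBPJ and switches on targets that include Hes1 and Hes5, which repress proneural genes such as Neurog2. Proneural factors in turn activate Dll1, and Hes1 and Dll1 are known to oscillate in cortical progenitors, so that sister states can hold one or the other.

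The 5′ flanks of 3 genes are shown because regulators of this loop are known to bind short motifs: Dll1, which 5 of the 8 Hes1- cells carried, Gadd45g, which was found in the same 5 cells, and Hes5, a Notch target related to Hes1. Each run is the 250 bases before an annotated start site, on the gene's own strand, from RefSeq with build GRCm38.p6, and capitals mark the RBPJ core TGGGAA (or its reverse complement) and the N box CACNAG, a motif bound by Hes proteins, both searched on both strands.

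Dll1, start site 1: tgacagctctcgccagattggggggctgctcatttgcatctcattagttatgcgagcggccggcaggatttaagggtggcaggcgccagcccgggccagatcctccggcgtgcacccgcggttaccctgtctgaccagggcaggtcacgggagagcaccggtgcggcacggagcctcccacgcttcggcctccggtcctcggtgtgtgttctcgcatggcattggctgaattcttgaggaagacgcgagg
Dll1, start site 2: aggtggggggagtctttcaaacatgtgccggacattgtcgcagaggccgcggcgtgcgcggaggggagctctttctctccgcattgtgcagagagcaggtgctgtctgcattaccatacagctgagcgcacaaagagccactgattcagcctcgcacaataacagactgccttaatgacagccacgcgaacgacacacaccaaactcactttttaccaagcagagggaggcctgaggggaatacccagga
Gadd45g: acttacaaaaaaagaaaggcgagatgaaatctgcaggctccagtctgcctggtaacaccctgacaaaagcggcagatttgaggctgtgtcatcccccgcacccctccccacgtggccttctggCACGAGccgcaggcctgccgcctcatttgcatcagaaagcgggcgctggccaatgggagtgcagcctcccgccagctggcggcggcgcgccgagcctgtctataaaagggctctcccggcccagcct
Hes5: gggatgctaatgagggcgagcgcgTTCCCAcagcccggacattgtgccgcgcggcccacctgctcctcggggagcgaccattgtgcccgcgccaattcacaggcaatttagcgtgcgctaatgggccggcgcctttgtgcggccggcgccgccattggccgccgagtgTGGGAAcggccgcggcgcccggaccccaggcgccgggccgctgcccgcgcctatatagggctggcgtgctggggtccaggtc

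The 2 Dll1 windows lie at chr17:15375824-15376073 and chr17:15376933-15377182 on the minus strand, and held neither of these motifs. The Gadd45g window, at chr13:51846425-51846674 on the plus strand, held 1 N box starting 127 bases before the start site. The Hes5 window, at chr4:154960673-154960922 on the plus strand, held 2 RBPJ cores, starting 226 and 82 bases before the start site. Of 32536 windows of this length, 21.6% held an RBPJ core, 36.7% an N box and 66.2% an E box (CANNTG, the motif of proneural factors). The E box was found 1 time in the first Dll1 window, 3 times in the second, 3 times in the Gadd45g window and 1 time in the Hes5 window. The Neurog2 window, at chr3:127632886-127633135 on the plus strand and not printed, held none of the 3 motifs. Of 2 Hes6 windows, the first held 3 E boxes and the second 1 E box and 1 N box. These are matches of letters in a short window, and say nothing about binding.

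The 12 Hes1+ cells held between 11.2 and 237 CPM of Hes1, and the 8 Hes1- cells between 0 and 5.35 CPM. Of the Hes1- cells, 5 had no Hes1 read at all and 1 had a single read in a library of 7672145 reads. Just inside the bound stood cells at 11.2 and 12.9 CPM, and just outside it cells at 5.35 and 3.94 CPM. For Sox2 the lowest cells inside stood at 10.9 and 17.3 CPM and the highest outside at 1.13 CPM. Sox2 itself ranged from 10.9 to 812 CPM in Hes1+ cells and from 30.3 to 481 CPM in Hes1- cells, and the ranges overlapped.

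The titles number the cells in 3 sets that the labels do not explain, and the groups fell unevenly over them. Set 1 gave 4 Hes1+ and 4 Hes1- cells, set 2 gave 1 and 4, and set 3 gave 7 and 0. Hes1 stood at 11.2 to 29.6 CPM in the Hes1+ cells of set 1, at 179 CPM in that of set 2, and at 32.8 to 237 CPM in those of set 3. In cells outside set 1, group and set can hardly be told apart, so that the difference within set 1 is given beside the main results. Those 8 cells are also part of the comparison over all 20.

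**Figure D1:**
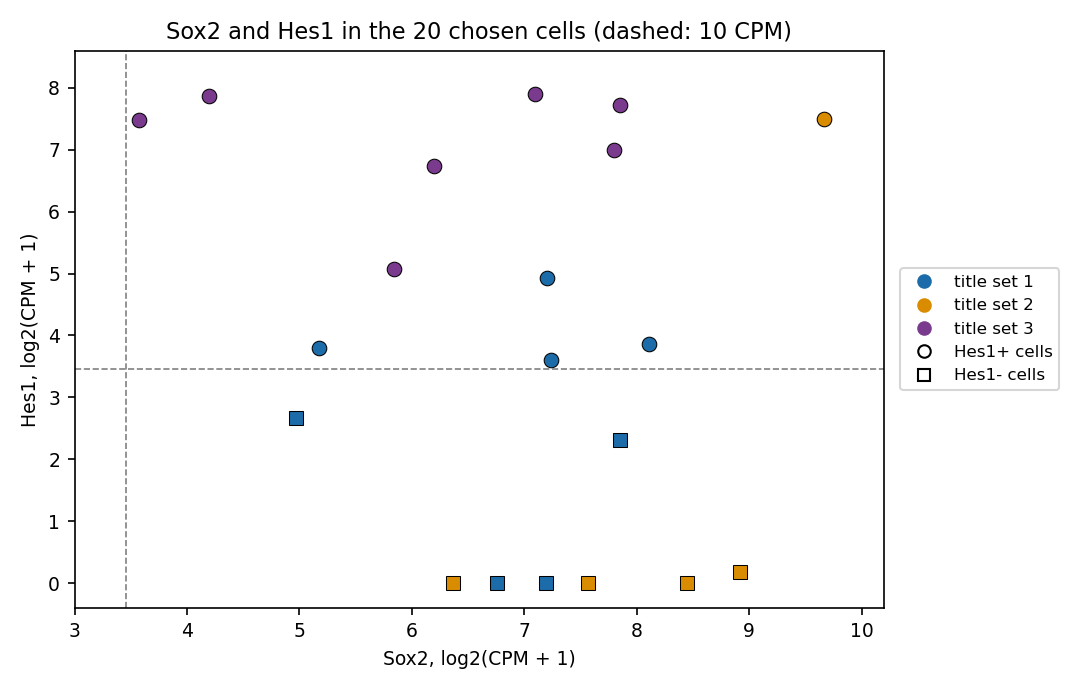
Sox2 (x axis) and Hes1 (y axis) in each of the 20 cells, both as log2(CPM + 1), with circles for Hes1+ and squares for Hes1- cells and colours for the title sets. The dashed lines mark 10 CPM, the bound of the choice; all 7 cells of set 3 are Hes1+, and the 4 Hes1+ cells of set 1 lie nearest above the line.

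Libraries held 11222299 to 32130629 reads in Hes1+ cells (median 21643342) and 7672145 to 21851171 in Hes1- cells (median 12974117). Vim, an intermediate filament of radial glia, was at 10 CPM or more in all 20 cells. Of 26 listed apical progenitor genes, 6 to 19 reached 10 CPM in a Hes1+ cell and 11 to 19 in a Hes1- cell. Some cells carried markers of other cell types or of basal progenitors. Set 3 cell 36, a Hes1+ cell, had 6 of those 26 genes, Dcx, a microtubule protein of young neurons, at 1543 CPM and Dlx5, a homeobox factor of ventral interneurons, at 673 CPM. Set 1 cell 20, a Hes1- cell, had Eomes, the T-box factor of basal progenitors, at 1235 CPM. At least 3 ventral interneuron genes were also found in set 1 cell 4 and set 2 cell 6, both Hes1-. Set 2 cell 5, a Hes1+ cell and the highest for Sox2, had 9 of the 26 apical genes, no Sox9 read, and 3 of 8 measured genes of Cajal-Retzius cells, early neurons of the marginal zone: Reln at 203, Lhx5 at 124 and Cxcr4 at 62.9 CPM. No other cell had more than 1 of these 8. Egfl7, an endothelial gene, was at 175 and 132 CPM in set 1 cells 3 and 15, both Hes1+. Esam, the other endothelial gene measured, had no read in these cells and was below 10 CPM in all 20. Olig2 and Pdgfra, genes of the oligodendrocyte lineage, were at 33.3 and 34.4 CPM in set 2 cell 6. Of 6 measured microglial genes, Cx3cr1 was at 11 CPM in set 3 cell 36, and C1qb, C1qc, Aif1, Tyrobp and Fcer1g never reached 10 CPM. Of 7 measured genes of mural and meningeal cells, Col3a1 was at 143 CPM in set 1 cell 4, a Hes1- cell. Lum was at 100 CPM in set 3 cell 24 and Acta2 at 100 CPM in set 1 cell 6, both Hes1+. Col1a1, Col1a2, Dcn and Pdgfrb never reached 10 CPM. The part of these markers in the results was not tested beyond the values without a cell. Globin and other erythroid reads summed to at most 0.463 CPM in the Hes1+ cells of set 1, to 0.287 to 505 CPM in its Hes1- cells, to 198 to 857 CPM in the cells of set 2 and to 175 to 1646 CPM in those of set 3.

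Among 7684 genes with a mean of 10 CPM or more over the 20 cells, 467 (6.08%) were higher in Hes1+ cells by 2 or more on the log2(CPM + 1) scale, and 624 (8.12%) were lower by as much. Counted by the share of cells at 10 CPM or more, 140 genes (1.82%) were higher in Hes1+ cells by 40 percentage points or more and 212 (2.76%) lower. The median difference over all genes was -0.03. Of the 467 higher genes, 407 had the same sign within set 1, as had 540 of the 624 lower genes. The cells of set 1 enter both comparisons, so shared signs follow in part from the construction and are no replication. A difference of this size was also common between title sets without any change of group: within the Hes1+ cells, 26% of genes were lower in set 3 than in set 1 by 2 or more and 6.57% higher.

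The Notch ligand Dll1 was carried mainly by cells without Hes1. It stood at 1075 CPM in set 2 cell 25, 814 in set 1 cell 7, 385 in set 1 cell 20, 94.6 in set 2 cell 6 and 69.7 in set 1 cell 4, and at no more than 0.391 CPM in the other 3 Hes1- cells. Among the 12 Hes1+ cells it reached 10 CPM only in set 3 cell 39, at 30.5 CPM (548 reads), and the next highest value was 4.51 CPM, in set 1 cell 15. The groups thus overlapped, through the 3 Hes1- cells without Dll1 and this single Hes1+ cell, whose Sox2 of 17.3 CPM was the second lowest of all.

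As a share of cells this was 5 of 8 Hes1- cells, 62.5% (exact Clopper-Pearson 95% interval 24.5% to 91.5%), against 1 of 12 Hes1+ cells, 8.33% (0.211% to 38.5%). The intervals cover counting error only, and they overlap. On the log2(CPM + 1) scale the mean was 0.69 ± 1.52 (SD, n = 12 cells) in Hes1+ and 5.19 ± 4.38 (SD, n = 8 cells) in Hes1- cells, a difference of -4.50, and within set 1 it was -5.46. Over 22 alternative settings the difference ran from -5.46 to -2.60.

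The other ligands were rarer. Jag1, a ligand of the Serrate type, was at 383 CPM in set 1 cell 6 and 164 CPM in set 1 cell 16, both Hes1+, reached 4.58 CPM at most in the other Hes1+ cells and had no read in any Hes1- cell. Both Jag1 cells were without Dll1. Dll3, a relative of Dll1 that does not activate Notch on other cells, reached 21.7 CPM in set 1 cell 4, a Dll1 cell, and 1.26 CPM at most elsewhere. Dlk1, a related non-canonical ligand, was at 45.6 CPM in set 2 cell 5, which is Hes1+, and at 3.91 CPM at most elsewhere, and Dner, another, was below 10 CPM in all 20 cells. Of the 5 ligand genes measured, Dll1 and Jag1 passed the mean of 10 CPM, and Dll1 alone lay past the bound.

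Receptors did not divide along the Hes1 line. Notch1 was at 10 CPM or more in 6 of 12 Hes1+ and 5 of 8 Hes1- cells, with a median of 30.2 CPM (lowest 0, highest 845) in Hes1+ and 39.7 CPM (lowest 0.391, highest 1949) in Hes1- cells. Its difference was -0.94 over all cells and 0.52 within set 1. Notch2 reached the bound in 7 of 12 and 7 of 8 cells, a difference of -1.83 (-0.59 within set 1), and Notch3 in 2 of 12 and 1 of 8, a difference of 1.17 (1.51 within set 1). None of the 3 receptors lay past the bound of 2. The highest Notch1 value of all was in a Hes1- cell, set 2 cell 19, which had no Hes1 read.

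Targets of Notch other than Hes1 were found in both groups. Nrarp, a feedback inhibitor induced by Notch, was at 46.7 to 122 CPM in 5 of 12 Hes1+ cells, and at 110 and 217 CPM in 2 of 8 Hes1- cells, set 2 cell 19 and set 1 cell 14. Hey1, a relative of Hes1, was at 36.1, 111 and 220 CPM in 3 Hes1+ cells and at 357 CPM in 1 Hes1- cell, again set 1 cell 14. Hes5 was low throughout, with 43.4 and 11.6 CPM in 2 Hes1+ cells and 17.6 CPM in 1 Hes1- cell. The differences were 0.80 for Nrarp (1.505 within set 1), 1.02 for Hey1 (1.45 within set 1) and 0.69 for Hes5, all short of the bound. Hes6, which counters Hes1 and is induced by proneural factors, was at 10 CPM or more in 3 Hes1+ and 2 Hes1- cells.

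Of the 6 Dll1 cells in the 2 groups, none had Nrarp or Hey1 at 10 CPM or more, and of the 14 cells without Dll1, 10 had at least 1 of them. With Hes5 counted too, 1 of the 6 Dll1 cells and 10 of the 14 others had at least 1 of the 3 targets. The exception was set 2 cell 25, the highest for Dll1, with Hes5 at 17.6 CPM. These pairs were looked at after their values were seen. In the 42 cells with Sox2 below 10 CPM, 4 of 11 Dll1 cells and 5 of 31 others had Nrarp or Hey1, so a separation of this kind was not seen there.

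Mfng and Gadd45g were found in exactly the 5 Hes1- cells that carried Dll1. Mfng, a Fringe glycosyltransferase that modifies Notch receptors, was at 638, 600, 306, 145 and 24.3 CPM there, reached 3.20 CPM at most in the other Hes1- cells and 0.319 CPM at most in Hes1+ cells. Its means were 0.09 ± 0.12 (SD, n = 12 cells) and 5.14 ± 3.90 (SD, n = 8 cells), a difference of -5.06 (-6.10 within set 1, and -6.14 to -2.88 over the alternatives). It was the single gene past the bound among 18 compared genes of the Notch machinery, which include proteases, glycosyltransferases, ubiquitin ligases and nuclear partners. That is 5.56% of the list lower in Hes1+ cells, no more than the 8.12% of all genes.

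Gadd45g, a stress and cell cycle exit protein that proneural factors induce, was at 926, 672, 617, 487 and 137 CPM in those 5 cells. Among Hes1+ cells it was found in set 3 cell 23 at 98.6 CPM, and elsewhere reached 0.369 CPM at most in either group. The difference was -5.06, with -6.47 within set 1 and -6.47 to -2.43 over the alternatives. Outside the Sox2 cells, Mfng and Gadd45g were found together in 5 of 11 Dll1 cells and 4 of 31 cells without Dll1.

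**Figure D2:**
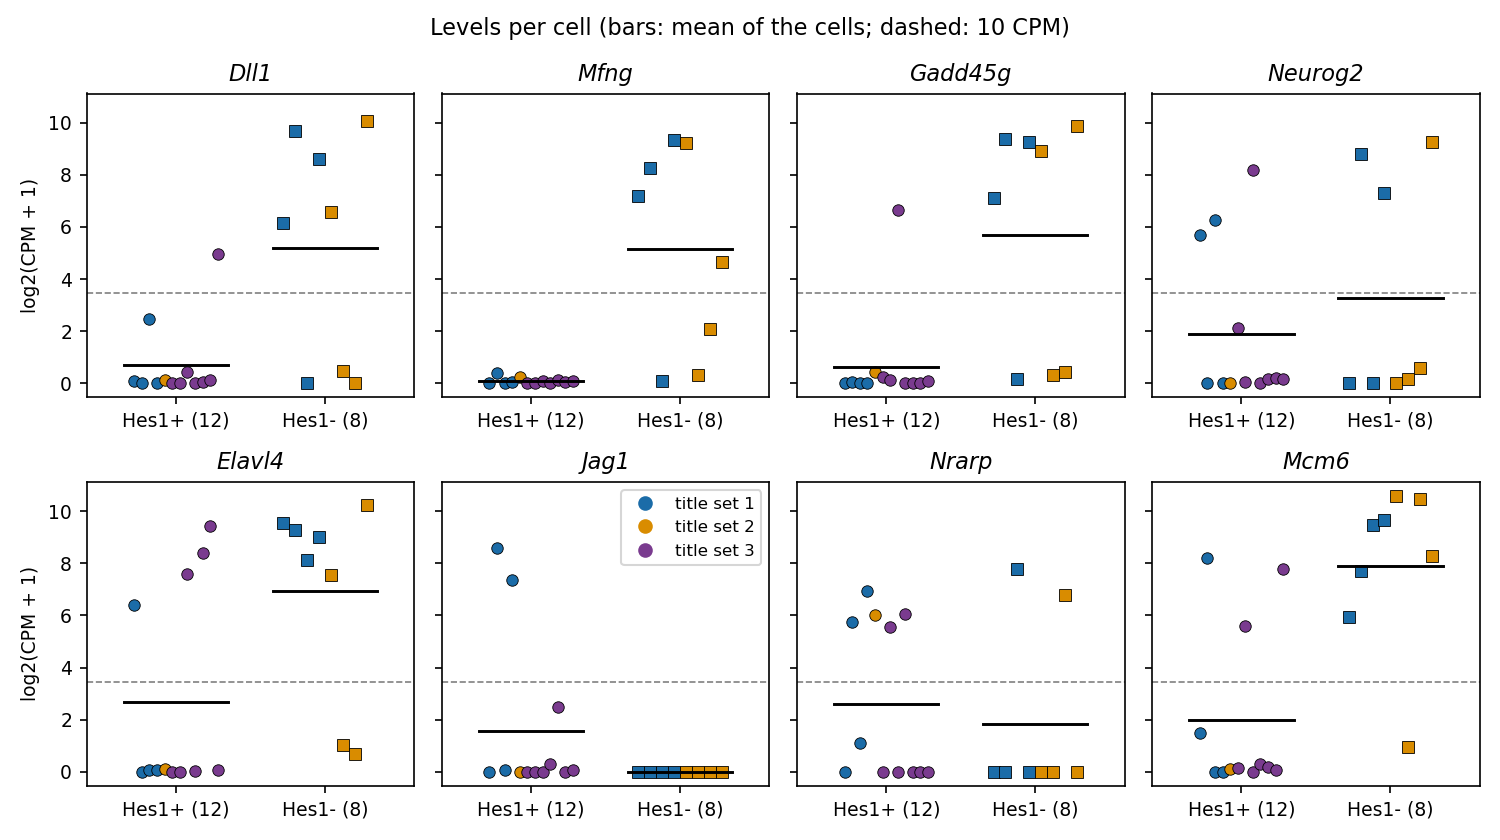
Levels of 8 genes as log2(CPM + 1) in the 12 Hes1+ cells (circles) and the 8 Hes1- cells (squares), coloured by title set, with a bar at each mean and a dashed line at 10 CPM. Dll1, Mfng and Gadd45g are each high in 5 Hes1- cells from sets 1 and 2, Jag1 in 2 Hes1+ cells of set 1, while Neurog2, Elavl4 and Nrarp are spread over both groups.

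Neurog2, the basic helix-loop-helix factor of excitatory neurogenesis, was less divided by group than Dll1. It was at 607, 448 and 156 CPM in 3 of 8 Hes1- cells and at 293, 76.1 and 51.3 CPM in 3 of 12 Hes1+ cells, a difference of -1.36 (-1.03 within set 1). Neurog1, a close relative of Neurog2, was at 22.6 and 15.5 CPM in 2 Hes1- cells and had no read in any Hes1+ cell.

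In Hes1- cells Neurog2 was found together with Dll1. The 3 Neurog2 cells of that group, set 2 cell 25, set 1 cell 7 and set 1 cell 20, were all among its 5 Dll1 cells. In the Hes1+ group 3 cells had Neurog2, and none of the 3 had Dll1 at 10 CPM. These 3, set 1 cells 3 and 15 and set 3 cell 23, held Hes1 at 11.2, 29.6 and 105 CPM.

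Among cells with Sox2 below 10 CPM, Dll1 was found in 5 of the 11 that had Neurog2 without Hes1, while the single cell that had it with Hes1 was without Dll1. Dll1 was there in 1 of 8 cells with Hes1 and 10 of 34 without it. The level difference was -0.96 against -4.50 in the Sox2 cells, and the gap between these was not tested.

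The 5 genes compared from the proneural list as reported here were Neurog2, Insm1, Tcf3, Tcf4 and Tcf12. All had a negative difference (median -1.50), against 51% of all genes, and all were negative within set 1 (median -1.04). Tcf3 was at 10 CPM or more in 6 of 12 Hes1+ and 4 of 8 Hes1- cells. Its difference of -0.59 became 0.997 with a Hes1 bound of 50 CPM. That of Neurog2 became 0.06 with a Sox2 bound of 50 CPM. The differences of Insm1, Tcf4 and Tcf12 stayed negative over the 22 alternatives. Only Tcf12, an E protein that pairs with proneural factors, lay past the bound at -2.11, 20% of the list against 8.12% of all genes. Within set 1 Tcf12 was at -0.33. Insm1, a zinc-finger factor of basal progenitor formation, was at 337 and 296 CPM in 2 Hes1- cells and at 341 CPM in set 3 cell 36. Neurod1, Neurod6 and Bhlhe22, factors of later neurons, were below 10 CPM in all 20 cells, and Neurod2 was at 120 CPM in set 3 cell 23 alone.

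**Figure D3:**
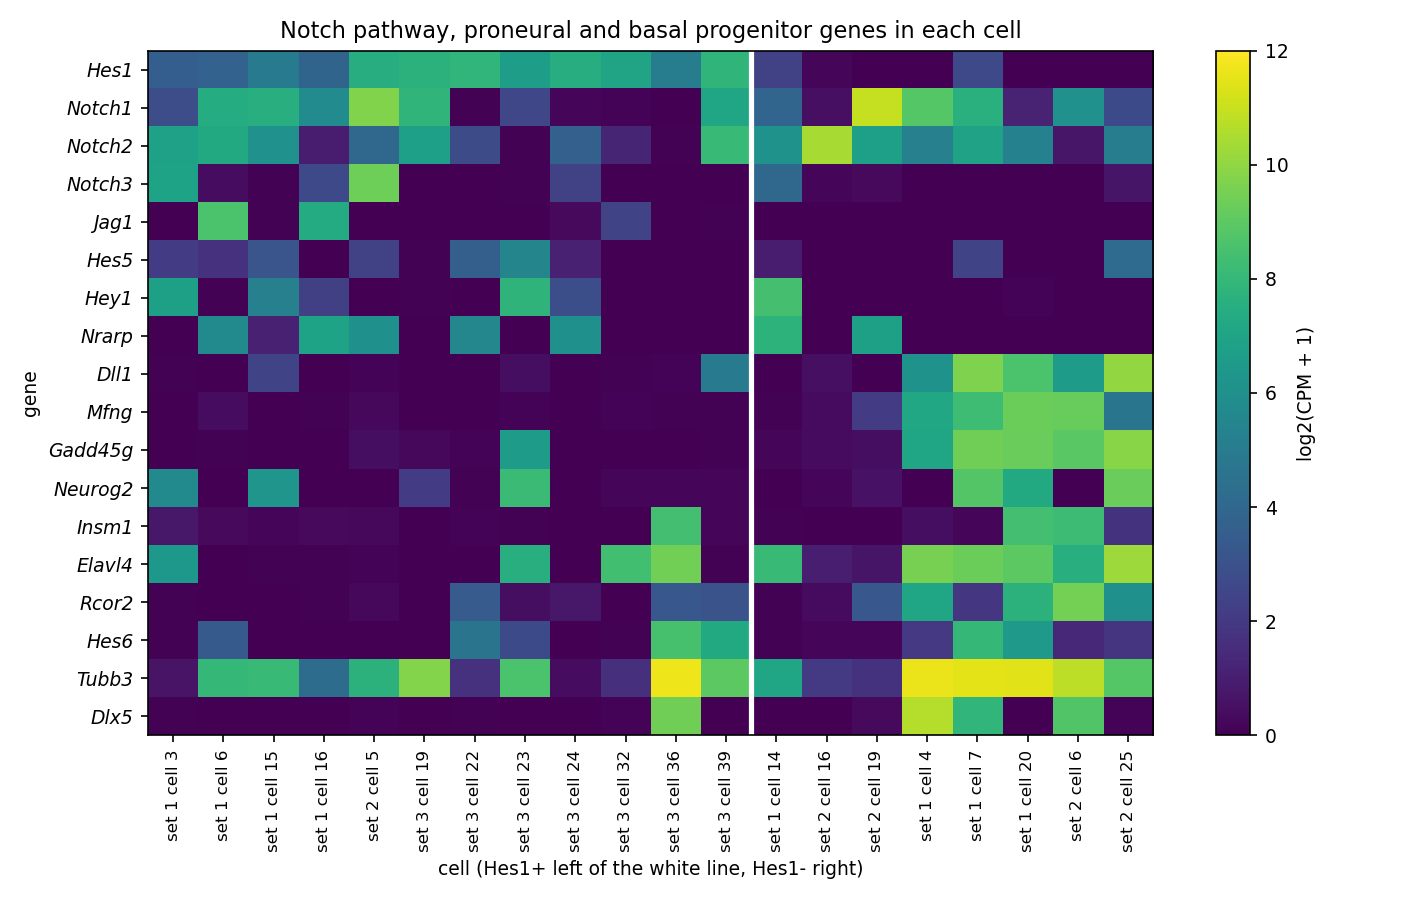
Levels of 18 genes (y axis) as log2(CPM + 1), by colour, in each of the 20 cells (x axis), with Hes1+ cells left and Hes1- cells right of the white line, and within each group cells without Dll1 before cells with it. The 5 right-most cells carry Dll1, Mfng and Gadd45g together, and none of them shows Nrarp or Hey1, while set 2 cell 25 shows Hes5 at 17.6 CPM.

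Genes of basal (intermediate) progenitors, the Eomes lineage that leaves the ventricular surface, were lower in Hes1+ cells as a list. All 11 compared members had a negative difference, over all cells (median -1.98) and within set 1 (median -2.54), and 5 of 11 (45.5%) lay past the bound, against 8.12% of all genes. Beside Mfng and Gadd45g these were Elavl4, a neuronal RNA-binding protein, at -4.26, Rcor2, a corepressor partner, at -3.54 (-4.16 within set 1), and Chd7, a chromatin remodeller, at -3.23 (-2.54 within set 1). Within set 1, 9 of 11 lay past the bound, against 15.8% of all genes compared there. Without set 1 cell 20 the count was 5, and without set 3 cell 36 it was 6.

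Elavl4 was at 10 CPM or more in 6 Hes1- cells (189 to 1205 CPM) and in 4 Hes1+ cells (82.9 to 696 CPM). Its difference was -7.36 within set 1 and -1.68 without set 1. Rcor2 was at 64.2 to 730 CPM in 4 Hes1- cells and below 10 CPM in every Hes1+ cell. Eomes reached 10 CPM in 2 Hes1- cells, at 1235 and 102 CPM, and in no Hes1+ cell, with a difference of -1.91 (-2.54 within set 1). Btg2, an antiproliferative gene of neurogenic divisions, was at 10 CPM or more in all 5 Hes1- cells with Dll1, but also in 8 of 12 Hes1+ cells, with a difference of -1.98 (-3.61 within set 1).

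Markers of other cell types were found in some or all of the same 5 cells, and also in Hes1+ cells. Tubb3, a neuronal tubulin, was at 449 to 3222 CPM in the 5 cells and at 131 CPM at most in the other Hes1- cells. In Hes1+ cells Tubb3 ranged from 0.311 to 3278 CPM, highest in set 3 cell 36. Its difference was -2.19 over all cells and 0.45 without set 1. Dlx5 was at 1616, 427 and 237 CPM in set 1 cell 4, set 2 cell 6 and set 1 cell 7, and at 673 CPM in set 3 cell 36. Of 12 measured ventral interneuron genes, 5 and 7 reached 10 CPM in set 1 cell 4 and set 2 cell 6, and 0 to 1 in the other Hes1- cells. With all cells of 3 or more ventral genes left out, the differences were -4.06 for Dll1, -4.03 for Mfng and -4.23 for Gadd45g.

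Apical progenitor genes gave no common direction. Of 25 compared, 15 were positive and 10 negative (median 0.33), 3 (12%) lay above the bound, against 6.08% of all genes, and 2 (8%) below it, against 8.12%. Within set 1, 16 of the 25 were positive and 9 negative (median 0.91), and 8 lay above the bound and 3 below it, against 16.6% and 13.9% of all genes. With a Hes1 bound of 50 CPM 9 were positive and 16 negative. Sox9, a factor of neural stem cells, was at 10 CPM or more in 11 of 12 Hes1+ and 4 of 8 Hes1- cells, a difference of 3.27 (1.30 within set 1). Fabp7, a fatty acid binding protein of radial glia, had a median of 966 CPM (1.69 to 2791) in Hes1+ and 133 CPM (0 to 1091) in Hes1- cells, a difference of 2.95 (1.20 within set 1). Ptprz1, a receptor phosphatase of radial glia, was at 440 to 472 CPM in 3 and at 59.5 CPM in the remaining one of the 4 Hes1+ cells of set 1, against 0.401 CPM at most in its Hes1- cells, and at 300 CPM in set 3 cell 39. It was also at 90.9 CPM in set 2 cell 19, a Hes1- cell, and at 1.26 CPM at most in the other Hes1+ cells. Its difference was 2.64, and 7.98 within set 1, but without set 1 it was -0.41.

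Sox9 did not keep its sign in every setting: without set 2 its difference was -0.17. In that set 3 of the 4 Hes1- cells had no Sox9 read and the other had 0.0832 CPM. The only Hes1+ cell of set 2, cell 5, had no Sox9 read either. Phgdh, the first enzyme of serine synthesis, was lower in Hes1+ cells at -3.12, and at -0.29 within set 1. Pax6, the homeobox factor of cortical radial glia, was at 10 CPM or more in 9 of 12 Hes1+ and 4 of 8 Hes1- cells, a difference of 1.32 that fell short of the bound over all cells and was 2.26 within set 1.

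Replication genes stood lower in Hes1+ cells over all 20, but not within set 1. Of 30 G1/S genes, 26 had a negative difference and 12 (40%) lay past the bound, against 8.12% of all genes, with a median of -1.76. Within set 1 they were 15 negative and 15 positive, with a median of -0.12. Per cell, 18 to 27 of the 30 genes reached 10 CPM in the Hes1+ cells of set 1 and 14 to 27 in its Hes1- cells, but only 2 to 17 in the Hes1+ cells of set 3. Mcm2, a subunit of the replicative helicase, was at 108 to 2167 CPM in all 8 Hes1- cells and at 389 to 579 CPM in the Hes1+ cells of set 1, against 18.3 CPM at most in set 3. Its difference was -4.58 over all cells and 0.74 within set 1.

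Another helicase subunit, Mcm6, differed in both comparisons. It was at 61 to 1543 CPM in 7 of 8 Hes1- cells, and at 297, 218 and 47.9 CPM in 3 of 12 Hes1+ cells, with 1.78 CPM at most in the others. The difference was -5.90 over all cells, -5.78 within set 1 and -7.07 to -3.59 over the alternatives, and the groups overlapped. In the rest of the series Mcm6 was at 10 CPM in 2 of 8 cells with Hes1 and 7 of 34 without it.

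Mitotic genes leaned the other way over all cells. Of 35 compared G2/M genes, 22 were positive, and 8 (22.9%) lay past the bound, against 6.08% of all genes: Ccnb1, Cdk1, Cenpe, Aurkb, Tpx2, Kif23, Kif2c and Nuf2, which serve mitotic entry, the spindle and kinetochores. Without set 2 cell 5 the count was 3, and without set 1 cell 20 it was 4. Within set 1, 11 were positive and 24 negative, and Cdk1 stood at -3.14 there against 2.13 over all cells. Of the 35 genes, 3 lay above the bound within set 1 and 9 below it, against 16.6% and 13.9% of all genes. Ccnb1, the cyclin of mitotic entry, was at 10 CPM or more in 11 of 12 Hes1+ cells (48.8 to 2087 CPM) and in 4 of 8 Hes1- cells (11.4 to 2846 CPM), a difference of 4.21, and 2.31 within set 1.

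**Figure D4:**
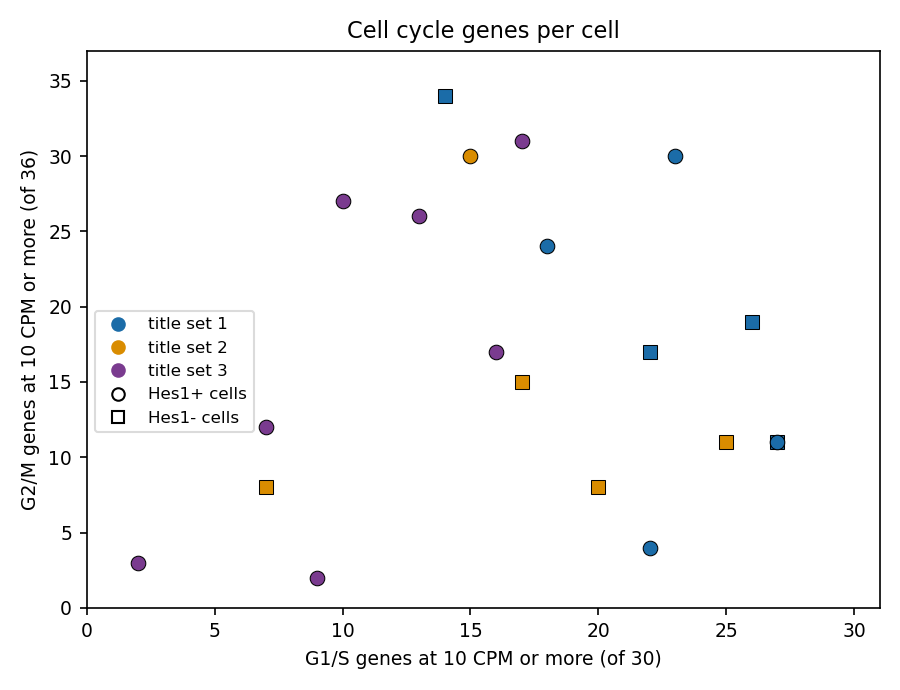
Number of listed G1/S genes (x axis, of 30) and G2/M genes (y axis, of 36) at 10 CPM or more in each cell, with circles for Hes1+, squares for Hes1- cells and colours for title sets. Set 3 cells have 2 to 17 G1/S genes and lie to the left of most set 1 cells, whose 2 groups overlap on both axes.

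Btg1, an antiproliferative relative of Btg2, was at 10 CPM or more in all 12 Hes1+ cells (11.5 to 3365 CPM) and in 5 of 8 Hes1- cells (0 to 621 CPM), a difference of 3.55. Within set 1 it was -0.30: the 4 Hes1+ cells stood at 234 to 543 CPM and the 4 Hes1- cells at 214 to 621 CPM. Ribosomal protein genes followed the sets likewise. Of 26, 24 had a positive difference (median 0.61), none past the bound, and within set 1 there were 16 positive and 10 negative (median 0.10). They summed to 54179 to 85975 CPM in the cells of set 3 and to 36363 to 46086 CPM in the Hes1+ cells of set 1.

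Genes of FGF and MAPK signalling, a pathway that supports progenitor growth, were all positive: 10 of 10 compared, with a median of 0.75, against 49% of all genes positive, and within set 1, 8 were positive and 1 negative. With TMMwsp-scaled values 9 of 10 were positive, and with a Hes1 or a Sox2 bound of 50 CPM or without set 1, 7 of 10. Spry2, Etv5 and Spry1, feedback inhibitors and an ETS factor induced by FGF, lay past the bound at 2.77, 2.14 and 2.06 (2.503, 2.30 and 1.15 within set 1), 3 of 10 against 6.08% of all genes. Spry2 was at 10 CPM or more in 6 of 12 Hes1+ cells (31.3 to 1442 CPM) and in 1 of 8 Hes1- cells (48.1 CPM, set 1 cell 14). Without set 2 cell 5, the cell with Cajal-Retzius genes, where Spry2 was at 1442 and Spry1 at 640 CPM, 8 of 9 compared genes were positive and 1 lay past the bound. None lay past it with a pseudocount of 10 or without set 2, and 5 did without set 3.

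Other signalling lists held few genes past the bound. Among 19 Wnt genes 1 was higher and 1 lower (5.26% each), and among 6 hedgehog genes 1 was higher (16.7%). Of all genes 6.08% were higher and 8.12% lower. Gli3, a transcription factor of hedgehog signalling that is mostly a repressor in cortex, was higher in Hes1+ cells at 2.12 (2.57 within set 1), and Znrf3, a ubiquitin ligase that removes Wnt receptors, at 2.16 (3.25 within set 1). Fzd3, a Wnt receptor, was lower at -2.38 (-1.71 within set 1), found in all 8 Hes1- and 9 of 12 Hes1+ cells. Of 4 compared Groucho corepressors, which Hes proteins recruit, Tle3 alone lay past the bound, 25% of the list against 8.12% of all genes. It was lower in Hes1+ cells at -2.81 (-2.15 within set 1). Its values were 341, 341 and 38.9 CPM in 3 Hes1- cells and 36.7 CPM in 1 Hes1+ cell. Id2, Id3 and Id4, which sequester proneural partners, did not reach the bound over all cells, and Id4 stood at 3.65 within set 1.

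**Figure D5:**
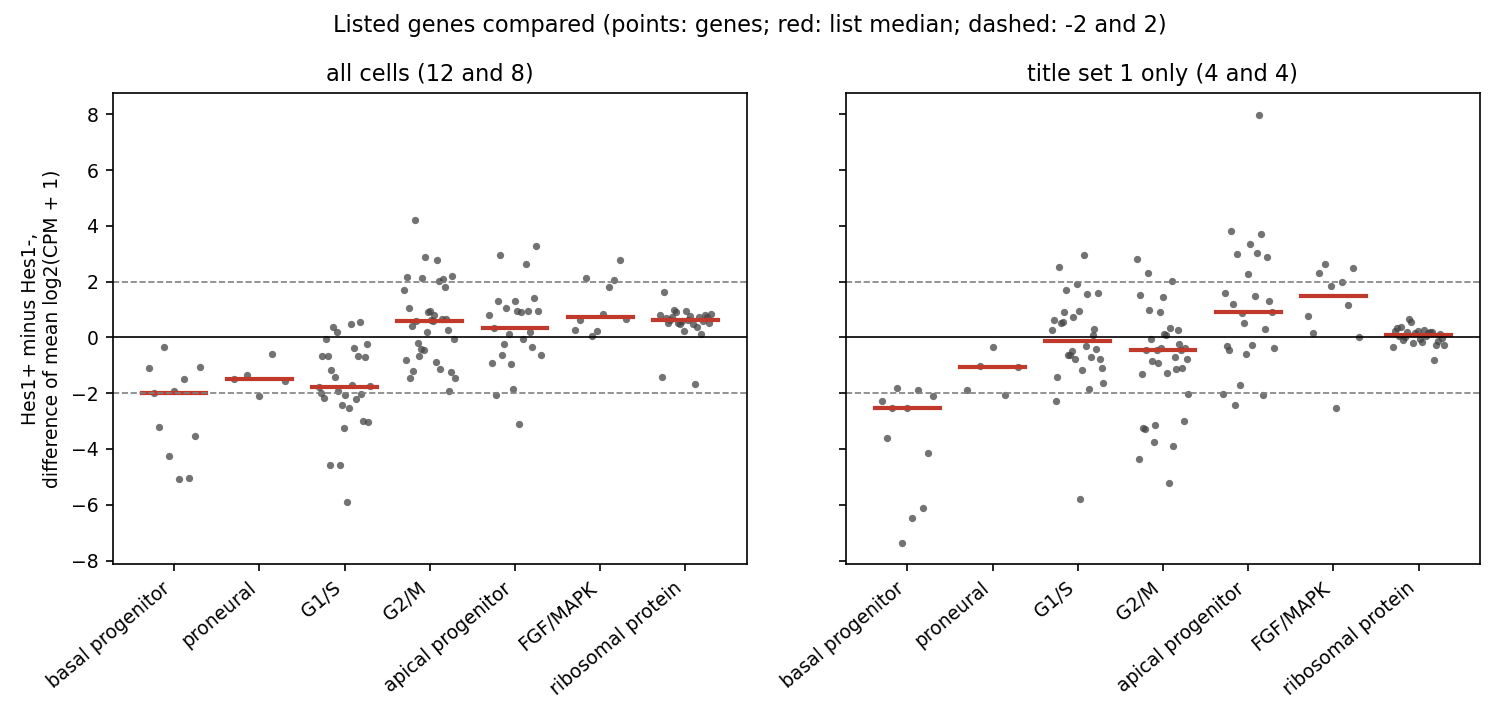
Difference of mean log2(CPM + 1), Hes1+ minus Hes1- (y axis), of each compared gene of 7 lists (points), with list medians in red and the bounds of -2 and 2 dashed, over all 20 cells (left) and within title set 1 (right). All 11 basal progenitor genes lie below 0 on both sides, while the G1/S median moves from -1.76 to -0.12.

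Outside the lists, 12 genes at each end with the same sign within set 1 were examined. Highest in Hes1+ cells was Fez1, a protein of axonal transport, at 6.09 (3.10 within set 1): it was at 10 CPM or more in 11 of 12 Hes1+ cells (18.4 to 1380 CPM) and in 1 of 8 Hes1- cells (842 CPM, set 1 cell 14). Srpk1, a kinase of splicing factors, was at 19.3 to 674 CPM in 10 of 12 Hes1+ cells and at 12.3 CPM in 1 Hes1- cell, a difference of 5.84 (6.59 within set 1). Adh5, a formaldehyde-clearing dehydrogenase, followed at 5.12 and 6.20 within set 1. Tecr, an enzyme of fatty acid elongation, was at 609 to 1855 CPM in all 12 Hes1+ cells against 0 to 480 CPM in Hes1- cells. Its difference of 4.69 was 1.36 within set 1. It is 1 of 12 genes picked for the size of their difference among 7684 compared. The other 8 were Caml, Coa3, Grpel1, Timm21, Tmem107, Mrpl22, Cenpc1 and Mrto4, at 4.37 to 4.93 over all cells.

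Lowest in Hes1+ cells was Zik1, a KRAB zinc-finger gene. It was at 121 to 686 CPM in 6 of 8 Hes1- cells, and at 0.365 CPM at most in all 12 Hes1+ cells, which covers every title set. The 2 remaining Hes1- cells held 0.130 and 0.641 CPM. Its difference was -6.03, -6.01 within set 1 and -6.89 to -3.60 over the alternatives. In the cells with Sox2 below 10 CPM the order was the reverse, with Zik1 in 4 of 8 cells with Hes1 and 10 of 34 without it, a difference of 1.38.

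Eif3b, a translation initiation subunit, was at 27.5 to 647 CPM in all 8 Hes1- cells and at 490 and 544 CPM in 2 of 12 Hes1+ cells, a difference of -5.03 (-6.08 within set 1). Ccpg1, a receptor for degradation of endoplasmic reticulum, was at 85.7 to 372 CPM in 5 Hes1- cells and at 0.0579 CPM at most in Hes1+ cells, a difference of -4.65 (-3.37 within set 1). Lpgat1, an acyltransferase of phospholipids, was at -4.93 (-5.97 within set 1). The other 8 were Itgb1, Csnk1e, Fnbp1l, Psme3, Hirip3, Ehmt2, Rtn4 and 2700081O15Rik, at -4.56 to -4.30. Itgb1, an integrin by which radial glia attach to matrix, was at 10 CPM or more in 5 of 8 Hes1- and 2 of 12 Hes1+ cells. In the 42 other cells the Srpk1 difference between cells with and without Hes1 was 2.28 and that of Fez1 was -0.93.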

How the data were processed

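The authors deposited 1 table of raw counts, whole numbers of reads per gene for 11971 genes in 65 cells. The names TopHat2, HTSeq and mm9 come from the submitters' processing notes, as listed without versions or roles. Their annotation was not given in the sources used here. The kit named in the labels' protocols adds no molecular identifiers and keeps no strand, so overlapping genes and near-identical copies cannot be told apart.

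Counts were scaled to CPM by each cell's total and logged as log2(CPM + 1). Genes with a mean of 10 CPM or more over the 20 cells were compared by the difference of means, with a bound of 2, and by the share of cells at 10 CPM or more, with a bound of 40 percentage points. No test was made. Shares carry exact Clopper-Pearson 95% intervals (scipy 1.17.1). The scripts were tested on simulated data, and used pandas 2.3.3, numpy 2.4.6 and, for TMMwsp scaling as an alternative, edgeR 4.0.16.

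The 30 gene lists, with 392 of 455 entries measured, and the members themselves were chosen with earlier results of these data known. Genes were named by rule: all measured ligands, receptors, targets and proneural genes, up to 4 compared genes per other list by size of difference, and outside the lists 12 genes at each end with the same sign within set 1. Further genes named from the lists, among them Eomes, Dcx, Vim, Btg2, Chd7, Cdk1, Aurkb, Kif2c and Nuf2, serve as markers or complete a count, and were named after their values were seen. Some genes that these rules cover are not reported here. No doublet caller was run on these singly sorted cells. No 2 of the 20 cells held identical values, and their log2 values correlated at 0.307 to 0.508.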

Additional observations from a re-analysis of the deposited data

Results flagged for a closer look

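In the 8 Hes1- cells, 30 quantities were checked for a single cell far from the others (gap over range above 0.526), and 3 passed. Chance flags about 1 in 20 groups, so that such a number has little weight. Set 1 cell 4 had 34 G2/M genes at 10 CPM or more, above the other Hes1- cells at 8 to 19. Set 1 cell 14 stood apart for Notch3, with log2(CPM + 1) of 4.05, and for Hey1, with 8.48. This cell held Hes1 at 3.94 CPM, just under the bound, and also carried Nrarp at 217 CPM and Fez1 at 842 CPM.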

How the results depend on the processing

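Of the 62 named genes past the bound of 2, TMMwsp scaling, removing the filter, a filter at 50 CPM and taking globin out of the totals left all 62 past it in the same direction, and thinning to 1000000 reads 61. The comparison within set 1 left 38, a pseudocount of 10 39, leaving out set 2 41, a Hes1 bound of 50 CPM 43, title set as a block 46, leaving out set 3 48, and the other settings 52 to 58. Differences that changed sign were Ptprz1 -1.90, Ncam1 -0.10, Sp8 -0.89 and Rab11a -1.76 with a Hes1 bound of 50 CPM. Within set 1 they were Mcm2 0.74, Dtl 0.54, Mcm4 1.93, Cenpe -0.90, Tpx2 -0.37, Btg1 -0.30, Tbp -0.67 and Tfrc 2.29. Without set 1 they were Ptprz1 -0.41, Map2 0.18 and Tubb3 0.45, and without set 2 Sox9 -0.17 and Tfrc 1.21. The cause was not tested.

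Counts are given as level higher, level lower, share higher and share lower, where the main counts were 467, 624, 140 and 212, and only those that moved by over 1.5 times are given. A pseudocount of 10 gave 97 and 102 for level, with 6 G1/S genes lower and 1 G2/M gene higher (main counts 12 and 8). A filter at 50 CPM gave 135 for share lower. A Hes1 bound of 1 CPM gave 763 for level higher, 314 for share higher and 8 basal progenitor genes lower (main count 5), and a Sox2 bound of 50 CPM gave 211 and 343 for share. Within set 1 the counts were 1324, 1103, 844 and 713, with 9 basal progenitor, 2 G1/S and 3 G2/M genes. Without set 1 they were 1069, 1194, 367 and 415, with 15 G2/M genes. Without set 2, level lower was 1343 and share lower 791, with 10 basal progenitor and 0 G2/M genes. Without set 3, level higher was 1265 and share higher 718, with 8 basal progenitor genes and 1 G1/S gene. Cells with fewer than 18 G2/M genes gave 857, 1044, 304 and 391, with 2 G2/M genes. Without set 1 cell 20, 4 G2/M genes were higher, and with the 2 shallow Sox2 cells added, 6 G1/S and 5 G2/M genes passed. With title set as a block (the differences within sets 1 and 2, weighted as in a linear model), level higher was 1141, share 485 and 355, with 2 G1/S and 5 G2/M genes, and without set 2 cell 5 there were 3 G2/M genes. Apical progenitor genes higher (main count 3) were 8 within set 1, 6 with a Hes1 bound of 1 CPM and without set 3, 5 with fewer than 18 G2/M genes and 1 with a pseudocount of 10. FGF and MAPK genes higher (main count 3) were 6 with the block and 1 with a filter at 50 CPM, a Hes1 bound of 1 CPM or the shallow cells. The settings without set 1 cell 20, set 3 cell 36, set 2 cell 5 or globin, with the shallow cells and with the block were added after the data were seen. Settings with fewer cells move counts by their construction.

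The median difference over all genes, -0.03 in the main comparison, was 0.11 with the block, which holds no cell of set 3. It was 0.29 without set 3 and no block, -0.29 without set 2 and -0.34 with a Hes1 bound of 50 CPM. The share of higher genes among those past the level bound was 42.8%, against 70.0% without set 3, 25.6% without set 2, 54.6% within set 1, 60.7% with the block, 56.1% with a Hes1 bound of 1 CPM and 52.8% with the shallow cells. Leaving out each cell in turn gave 423 to 590 level higher, 594 to 771 level lower, 121 to 221 share higher (221 without set 1 cell 14), 207 to 341 share lower (341 without set 2 cell 19), 5 to 7 basal progenitor, 9 to 17 G1/S and 3 to 10 G2/M genes (3 without set 2 cell 5). No paired analysis was possible because no label ties single cells of the 2 groups to each other and no test was made. Depth was 7672145 reads or more in every cell, and transcripts lost before sequencing were not measured, so that a gene with no read is not shown to be absent.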

Other observations

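Neuronal genes were present in some cells of both groups. Of 13 compared genes of neuronal maturation, 5 were positive and 8 negative. Ncam1, an adhesion molecule, was higher in Hes1+ cells at 2.85, and Tubb3 and Map2, proteins of neuronal microtubules, were lower at -2.19 and -2.33. That is 7.69% of the list higher and 15.4% lower, against 6.08% and 8.12% of all genes. Tbr1, Nefm, Nefl, Mapt, Neurod6, Ina, Mef2c, Myt1l and Cntn2, genes of older neurons, were below 10 CPM in all 20 cells.

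Cortical patterning genes had 5 positive and 11 negative differences, with Sp8, a zinc-finger factor of the anterior cortex, higher at 2.28. Among 16 adherens junction and polarity genes, Rab11a, a small GTPase of recycling endosomes, was higher at 2.87 (3.57 within set 1), and Prkci, an atypical protein kinase C of the apical domain, was lower at -3.83. Prkci was at 121 to 770 CPM in the 4 Hes1- cells of set 2 and at 11.3 CPM in 1 Hes1- cell of set 1. It was also at 13.2 CPM in set 1 cell 16, a Hes1+ cell, and its difference within set 1 was -0.20. Glycolysis genes were split, 7 positive and 7 negative, with Pfkl, a phosphofructokinase subunit, lower at -2.19. Ccnd2, a cyclin of G1, was lower at -2.68 (-0.82 within set 1). None of 5 BMP genes and none of 3 immediate early genes lay past the bound. Of 12 housekeeping genes, Tbp was higher at 2.21 and Tfrc lower at -2.06, each with the opposite sign within set 1. Past the bound were 6.25% of patterning genes (higher), 6.25% of junction and polarity genes each way and 7.14% of glycolysis genes (lower). For housekeeping genes it was 8.33% each way, and for all genes 6.08% higher and 8.12% lower.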
